A study of Mus musculus with 9 samples.

Results

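The nuclear-encoded subunits of the oxidative phosphorylation system were examined in bone marrow-derived mast cells (BMMCs), primary mast cells grown from the bone marrow of C57BL/6 mice in medium conditioned by WEHI-3 cells. The subunits were the 88 of 47643 listed genes whose protein-coding symbols carry the name of a subunit of complex I to V, which takes in the coupling factor Atp5s and the inhibitor Atpif1 with the structural subunits. They comprised 38 genes of complex I (Ndufa, Ndufb, Ndufc, Ndufs, Ndufv and Ndufab1), 4 of complex II (Sdha to Sdhd), 9 of complex III (the Uqcr genes and Cyc1), 18 of complex IV (Cox4 to Cox8) and 19 of complex V (the Atp5 genes, with Usmg5 and Atpif1, which carry Atp5 names in other annotations). Pseudogenes and assembly factors were left out. The cells fell into 3 groups of 3 libraries each, Control, IgE+BSA and IgE+BSA+Luteolin. Control cells had no treatment that the labels name, IgE+BSA cells were sensitized with DNP-specific IgE and challenged with DNP-BSA, the antigen that crosslinks IgE on the cell surface, and IgE+BSA+Luteolin cells also received luteolin, a plant flavone, at 10 μM for 24 h. The sources do not settle whether luteolin came before or after the challenge. They do not say whether libraries of a group came from separate cultures or animals either, so the p-values below measure the spread between these libraries only. Levels are given as CPM, the counts of a gene per 1000000 counts of its library, scaled with edgeR's TMM factors. Levels compared between genes are also divided by transcript length in kilobases (RPKM).

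Oxidative phosphorylation couples the oxidation of nutrients to ATP synthesis in the inner mitochondrial membrane. Complex I takes electrons from NADH and complex II takes them from succinate, both pass them on through ubiquinone to complex III and then through cytochrome c to complex IV, which reduces oxygen, and the proton gradient built by complexes I, III and IV drives the ATP synthase, complex V. Each complex is assembled from several subunits, many of them small in all but complex II, and all but complex II also hold subunits encoded in mitochondrial DNA. The 13 mitochondrially encoded subunits had 0 counts in all 9 libraries, as had all 37 genes listed on the mitochondrial chromosome, so they give no level here and only the nuclear-encoded subunits are described.

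Depth ranged from 9515004 counts in Control replicate 2 to 24605689 in IgE+BSA+Luteolin replicate 2, and 3 counts corresponded to 0.122 to 0.315 CPM, a floor that covers counting error only. Markers of mast cells, among them Kit, Fcer1a and Cpa3, summed to 53439 to 82322 CPM in every library. Markers of neutrophils and their precursors (7 genes, S100a9, S100a8 and Ngp the most abundant) split the Control group, with a sum of 257 CPM in Control replicate 1 and of 2.91 and 2.39 CPM in Control replicates 2 and 3, against 182 to 204 CPM in IgE+BSA and 213 to 250.2 CPM in IgE+BSA+Luteolin. In Control replicates 2 and 3 no neutrophil marker exceeded 1.07 CPM, and Elane, Camp and Ltf were each at 0 in 1 of the 2. The sums of 3 other cell types split Control the same way, with 82322 CPM in Control replicate 1 and 53439 and 53474 CPM in replicates 2 and 3 for mast cells, 1193 against 673 and 631 CPM for basophils and 37.4 against 13.0 and 10.1 CPM for eosinophils. Those of macrophages and monocytes, at 340.2, 337 and 325 CPM, and of erythroid cells, at 117, 101 and 61.6 CPM in Control replicates 1, 2 and 3, did not. Sums weigh abundant markers most. In IgE+BSA against the 3 Control libraries, 3 of 9 mast cell markers were higher and 6 lower by fold change. Of 2 basophil markers 1 was higher and 1 lower, and 3 of 3 eosinophil markers were higher, none of them called. In bulk RNA, fewer cells of a type and less RNA per cell cannot be told apart. Lymphocyte markers stayed under 1 CPM in sum in every library, and the markers of macrophages and monocytes summed to 325 to 395 CPM.

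Of the 88 subunits, 81 had a median above 1 CPM over the 9 libraries and were tested, and 7 were not. All 7 are isoforms known from particular tissues or conditions. Cox7b2, Cox8b and Cox8c had 0 counts in all libraries. Ndufa4l2, Cox4i2 and Cox6a2, known from hypoxic cells, lung and muscle, reached at most 0.387 CPM in any library. Cox7a1, the heart and muscle isoform of subunit VIIa, had a median under the limit, with 0.195, 0.485 and 0.495 CPM in Control, 0.725, 0.651 and 1.12 CPM in IgE+BSA and 0.0467, 0.203 and 0.242 CPM in IgE+BSA+Luteolin. Their widely expressed counterparts Cox4i1, Cox6a1, Cox7a2 and Cox8a were present at 43.4 CPM or more in every library. Above this limit were 37 of 38 complex I, 4 of 4 complex II, 9 of 9 complex III, 12 of 18 complex IV and 19 of 19 complex V genes.

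Levels per length differed widely within each complex. Averaged over the 9 libraries, the subunits tested spanned 12.2 to 135 RPKM in complex I with a median of 53.0, 25.3 to 85.0 with a median of 77.0 in complex II, 49.7 to 220.2 with a median of 123 in complex III, 15.2 to 308 with a median of 146 in complex IV, and 5.18 to 429 with a median of 155 in complex V. The highest was Atp5b, the catalytic beta subunit of ATP synthase, at 374 ± 151 RPKM in Control, 421 ± 21.8 in IgE+BSA and 492 ± 22.4 in IgE+BSA+Luteolin (mean ± SD, n = 3). The lowest was Atp5s, a coupling factor (factor B) rather than a structural subunit, at 5.28 ± 0.84, 4.99 ± 0.203 and 5.27 ± 0.293 RPKM in the same order. In complex I, Ndufb2 and Ndufb4 lay lowest. The c subunit that forms the rotor ring has 3 genes that encode the same mature protein, and all were expressed, Atp5g3 and Atp5g2 at 178 ± 11.7 and 164 ± 5.60 RPKM in IgE+BSA and Atp5g1 at 101 ± 3.89. The intervals of Atp5g3 and Atp5g2 overlapped, and Atp5g1 lay below both. The transcript of each gene was taken from the annotation, and the isoform used in these cells was not measured, which limits any order of levels.

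Across the libraries the subunits moved together, and the Control group was split. Summed over the 88 genes, the level was 9692, 6181 and 5721 CPM in Control replicates 1, 2 and 3, 7361, 7847 and 6951 CPM in the IgE+BSA libraries and 8895, 9058 and 8105 CPM in the IgE+BSA+Luteolin libraries. Control replicate 1 thus lay above all other libraries and Control replicates 2 and 3 below all others, while the IgE+BSA and IgE+BSA+Luteolin libraries did not overlap. The coefficient of variation was 30.2% in Control, 6.07% in IgE+BSA and 5.87% in IgE+BSA+Luteolin. Control replicate 1 was the highest of the 3 Control libraries for 76 of the 81 subunits tested, against 43.4% of all 11560 genes tested, and the highest of all 9 libraries for 61, against 20.0%. Its level divided by the mean of the other Control libraries had a median of 1.70 over the subunits and of 0.98 over all genes.

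**Figure D1:**
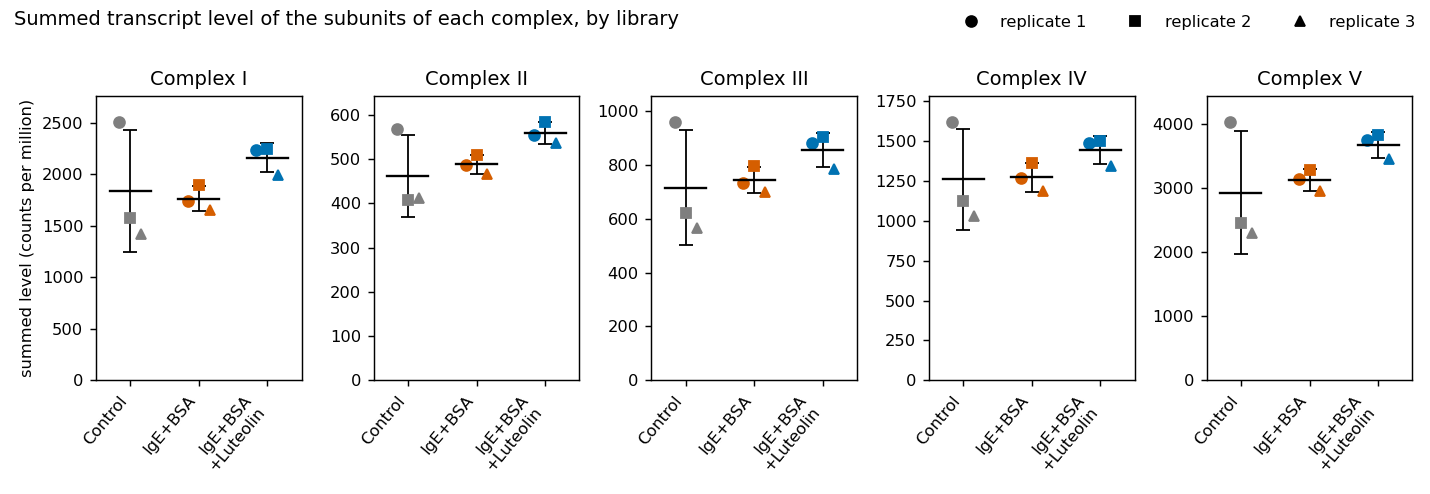
Summed level of the subunits of each complex (vertical axis, CPM, starting at 0) in the 9 libraries, with replicates 1, 2 and 3 as circles, squares and triangles and the mean ± SD of each group as black lines. In each of the 5 panels Control replicate 1 lies far above Control replicates 2 and 3, and the IgE+BSA+Luteolin mean lies above the IgE+BSA mean.

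The split held in each complex. Control replicate 1 was the highest Control library for 37 of 37 subunits of complex I, 4 of 4 of complex II, 8 of 9 of complex III, 10 of 12 of complex IV and 17 of 19 of complex V. The median ratio of Control replicate 1 to the mean of replicates 2 and 3 was 1.70 in complex I, 1.48 in complex II, 1.83 in complex III, 1.70 in complex IV and 1.69 in complex V. Another 4 subunits went the other way and were lowest in Control replicate 1 among the Control libraries. They were Cox7a2l, Cox6b2, Uqcrh and Atp5s. Cox7a2l is known for a part in joining complexes III and IV into supercomplexes. Whether it does so in these C57BL/6 cells was not tested. It stood at 86.5, 205 and 171 CPM in Control, 103, 114 and 107 CPM in IgE+BSA and 96.0, 103 and 99.4 CPM in IgE+BSA+Luteolin. Control replicates 2 and 3 were thus above each of the other 7 libraries. Cox6b2, an isoform of subunit VIb known from testis, stood at 9.11, 17.4 and 10.4 CPM in Control, 5.89, 5.46 and 5.72 CPM in IgE+BSA and 6.72, 8.76 and 6.39 CPM in IgE+BSA+Luteolin with its lowest Control value also in replicate 1. Uqcrh, the hinge protein of complex III, was at 118, 149 and 122 CPM in Control. Since the replicates of Control differ in this way, the comparisons with Control are given below also without replicate 1 and with replicate 1 as the only Control library.

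**Figure D2:**
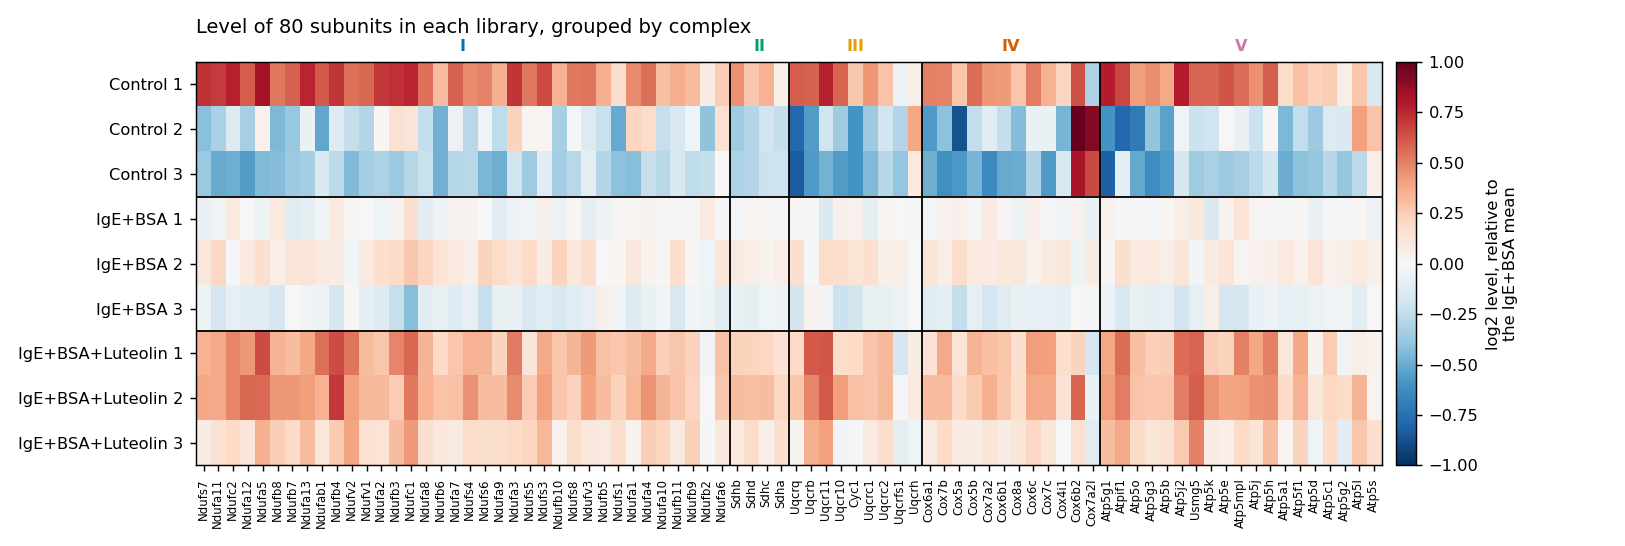
Level of 80 of the 81 subunits tested (columns, by complex, ordered within a complex by the ratio of Control replicate 1 to the other Control libraries) in the 9 libraries (rows), as the log2 of CPM + 0.5 relative to the mean of the IgE+BSA libraries, with values beyond ±1 drawn as ±1. Control replicate 1 is above that mean (red) in 77 columns and the IgE+BSA+Luteolin libraries in 76, 77 and 71, while Control replicates 2 and 3 are below it (blue) in 63 and 75, and the IgE+BSA libraries themselves are above it in 40, 73 and 8.

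**Figure D3:**
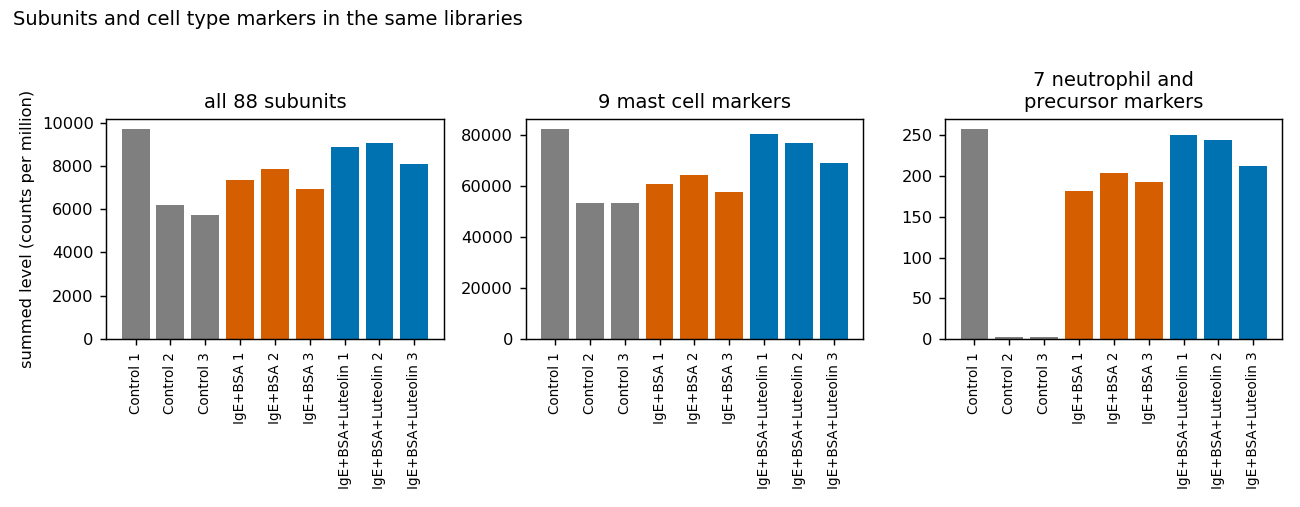
Summed levels (CPM, bars from 0) of the 88 subunits, of 9 mast cell markers and of 7 markers of neutrophils and their precursors in each of the 9 libraries. The 3 sums are highest in Control replicate 1, lowest in Control replicates 2 and 3, and higher in the IgE+BSA+Luteolin than in the IgE+BSA libraries.

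The promoters of the subunits were searched for 3 motifs known from respiratory genes. The search used RefSeq windows (GRCm38.p6) of 250 bases before to 50 after an annotated start, which 71 of the 88 genes had in 76 entries. The NRF1 motif (GCGCA and GCGC with any base between them) was in 25.0% of these windows and in 4.60% of all 32851 promoter windows, the ETS motif CCGGAAG bound by GABP in 22.4% and 8.86%, and the YY1 motif AAGATGGC in 13.2% and 2.75%, on either strand. Each motif was counted on its own, overlapping matches included. A match describes the letters only. The windows of all genes were not limited to genes tested here, and a part of the motifs in the levels was not tested. By complex, the NRF1 motif was in the windows of 7 of 33 genes of complex I, 2 of 3 of complex II, 1 of 5 of complex III, 1 of 13 of complex IV and 7 of 17 of complex V.

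The promoters of 5 subunits are printed to show what these motifs look like in members whose values are described below. They are Ndufb4, Sdhd, Uqcr11 and Usmg5, which had the largest difference with luteolin among the subunits tested in complexes I, II, III and V, and Cox7a2l, whose level ran against the others. Each is the longest stretch of the 250 bases before the start that no annotated exon covers, 5′ to 3′ on the strand of the gene, with motifs in capitals. They lie at chr16:37654454-37654618, minus strand (Ndufb4), chr9:50603850-50603909, minus strand (Sdhd), chr10:80406831-80407071, minus strand (Uqcr11), chr17:83514334-83514583, minus strand (Cox7a2l) and chr19:47090648-47090767, minus strand (Usmg5).
Ndufb4: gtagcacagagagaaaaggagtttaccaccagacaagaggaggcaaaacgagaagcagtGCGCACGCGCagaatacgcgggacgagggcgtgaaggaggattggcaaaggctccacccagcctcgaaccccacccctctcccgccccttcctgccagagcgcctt
Sdhd: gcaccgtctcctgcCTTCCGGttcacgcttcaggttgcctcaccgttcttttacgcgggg
Uqcr11: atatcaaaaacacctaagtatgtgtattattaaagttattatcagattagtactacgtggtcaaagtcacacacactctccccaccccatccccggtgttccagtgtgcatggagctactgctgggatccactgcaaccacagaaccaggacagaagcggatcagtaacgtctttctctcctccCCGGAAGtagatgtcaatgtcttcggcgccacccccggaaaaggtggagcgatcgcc
Cox7a2l: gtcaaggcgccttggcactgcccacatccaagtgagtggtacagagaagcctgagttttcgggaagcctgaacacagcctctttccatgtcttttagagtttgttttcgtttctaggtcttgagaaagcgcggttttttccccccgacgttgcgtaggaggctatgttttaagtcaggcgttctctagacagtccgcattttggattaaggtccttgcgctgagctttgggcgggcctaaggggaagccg
Usmg5: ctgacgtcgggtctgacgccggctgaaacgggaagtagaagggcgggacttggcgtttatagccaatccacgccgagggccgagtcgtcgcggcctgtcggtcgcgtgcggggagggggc
The window of Ndufb4 held 3 NRF1 motifs, of which 1 is in the stretch shown, with its first base 191 bases before the start. That of Sdhd held 1 NRF1 motif outside the stretch and 1 ETS motif in it, and that of Uqcr11 held 1 ETS motif 66 bases before the start. The window of Usmg5 had 1 ETS motif only after the start, and that of Cox7a2l had none of the 3 motifs. The start used for Cox7a2l is an internal one, within the gene as annotated by GENCODE (chr17:83501918-83517330). The RefSeq start of Sdhd lies before the 5′ end of the gene in GENCODE, at chr9:50603812.

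The comparison of IgE+BSA+Luteolin with IgE+BSA asks which subunit transcripts differ when stimulated cells also receive luteolin. Each gene was tested in the 6 libraries by quasi-likelihood in edgeR, and adjusted p-values (Benjamini-Hochberg, over the 11560 genes tested) under 0.05 were called. Subunits of all 5 complexes were higher with luteolin, by little. Of the 81 tested, 62 passed the test as higher and 0 as lower, while of all genes tested 18.1% were called higher and 21.9% lower. The median log2 fold change was 0.26 over the subunits and 0.017 over all genes, and it was above 0 for 78 subunits. The summed level of the subunits was 1.18 times that of IgE+BSA. The 3 IgE+BSA+Luteolin libraries were all above the 3 IgE+BSA libraries for 47 subunits, against 24.1% of all genes, the groups overlapped for 33, and for 1, Cox7a2l, they were all below, against 26.2% of all genes.

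These calls rest on the spread within the 2 groups. When all 9 libraries were fitted together, so that the Control libraries entered the estimate of the spread, 0 subunits passed as higher with the same median of 0.26. In that edgeR fit 2 subunits had an unadjusted p under 0.05, and 1.52% of all genes were called higher and 7.93% lower. DESeq2 and limma on the 6 libraries called 62 each, against 16.9% and 18.1% of all genes, and 36 passed a threshold of 0.01, against 9.5%. Leaving out 1 library in turn left between 36 and 73 subunits higher, with 36 without IgE+BSA+Luteolin replicate 1 (10.5% of all genes), 38 without IgE+BSA+Luteolin replicate 2 (10.7%), 39 without IgE+BSA replicate 1 (11.5%) and 41 without IgE+BSA replicate 3 (12.6%). It was 69 without IgE+BSA+Luteolin replicate 3 (19.9%) and 73 without IgE+BSA replicate 2 (19.0%). Of the subunits whose libraries are all given below, Sdha, Sdhb, Sdhc, Uqcrc1 and Atp5g3 passed in all 6 libraries but not without any 1 of the 4 libraries that gave 36 to 41, while Cyc1, Cox4i1 and Atp5a1 passed in edgeR's test without either of the other two and Cox5a without IgE+BSA replicate 2. Some sums of markers were also higher with luteolin and did not overlap, that of mast cells at 69153 to 80432 CPM in IgE+BSA+Luteolin against 57580.0 to 64412 CPM in IgE+BSA, that of basophils at 910.2 to 1026 against 807 to 889.6 CPM, and that of neutrophils as given above. The sums overlapped for macrophages and monocytes, at 360.4 to 395 against 358 to 388 CPM, for eosinophils, at 21.7 to 29.1 against 25.4 to 29.0 CPM, and for erythroid cells, at 78.7 to 99.9 against 70.7 to 82.9 CPM. Of 9 mast cell markers 6 were higher and 2, Hdc and Tpsab1, lower, and 2 of 7 neutrophil, 2 of 2 basophil and 0 of 3 eosinophil markers were higher, with 1 eosinophil marker lower and none of the 4 macrophage and 2 erythroid markers tested called. Beside these counts, 18.1% of all genes were called higher and 21.9% lower, and the lists are short. The part of the markers in the result was not tested.

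**Figure D4:**
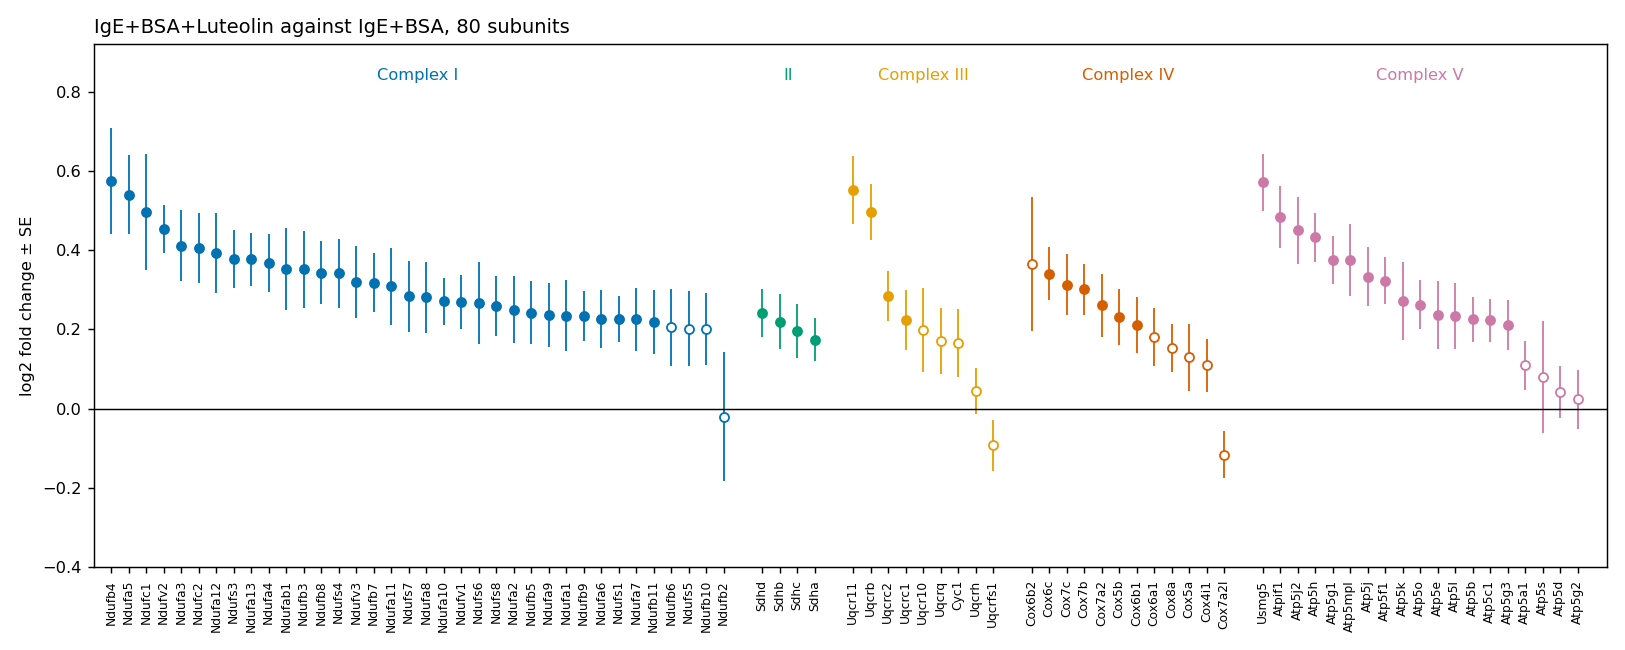
Log2 fold change of 80 of the 81 subunits tested (points, bars ± SE) in IgE+BSA+Luteolin against IgE+BSA, ordered by size within complex I to V. Filled points passed an adjusted p of 0.05 in edgeR's quasi-likelihood test (61 subunits drawn) and open points did not (19), and 77 of the points lie above 0.

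In complex I, NADH dehydrogenase, 33 of 37 subunits tested were higher, with a median log2 fold change of 0.28. Summed over complex I, the level was 2510.3, 1578 and 1417 CPM in Control, 1741, 1895 and 1652 CPM in IgE+BSA and 2235, 2248 and 1996 CPM in IgE+BSA+Luteolin, with no overlap between the stimulated groups. All 7 nuclear-encoded core subunits, some of which bind NADH, flavin mononucleotide or iron-sulfur clusters, were higher. Ndufv1, which holds the NADH and flavin site, was at 114, 62.4 and 60.3 CPM in Control, 76.2, 81.8 and 71.7 CPM in IgE+BSA and 95.4, 95.8 and 85.0 CPM in IgE+BSA+Luteolin (log2 fold change 0.27 ± 0.069, adjusted p = 0.0055). Ndufs1, the largest core subunit, was at 98.5, 62.1 and 66.4 CPM in Control, 89.2, 89.5 and 86.1 CPM in IgE+BSA and 106, 103 and 99.6 CPM in IgE+BSA+Luteolin (log2 fold change 0.23 ± 0.057, adjusted p = 0.0051). In both genes each luteolin library was above each IgE+BSA library.

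Among the accessory subunits, which surround the core, 25 of 29 were higher. Ndufb4, a small subunit of the membrane arm, had the largest change of the 37 tested in complex I. Its level was 18.5, 10.1 and 9.13 CPM in Control, 11.9, 11.7 and 9.82 CPM in IgE+BSA and 17.7, 18.4 and 13.4 CPM in IgE+BSA+Luteolin (log2 fold change 0.57 ± 0.13, adjusted p = 0.003), so the luteolin libraries did not overlap those of IgE+BSA, although the gene was among the least abundant subunits. Ndufb2, another small membrane subunit, was lowest in order. It stood at 6.14, 4.27 and 4.83 CPM in Control, 6.25, 5.61 and 5.57 CPM in IgE+BSA and 5.65, 5.80 and 5.71 CPM in IgE+BSA+Luteolin and its log2 fold change was -0.020 (adjusted p = 0.94), with overlapping groups at a few CPM, and it ran from -0.051 without IgE+BSA replicate 3 to 0.036 without IgE+BSA replicate 1. Ndufb6, Ndufb10 and Ndufs5 did not pass either, each with a log2 fold change of 0.20. Ndufa4, counted here with complex I by its name but known as a subunit bound to complex IV, was at 64.6, 50.1 and 37.4 CPM in Control, 45.1, 45.0 and 41.9 CPM in IgE+BSA and 57.2, 60.2 and 52.2 CPM in IgE+BSA+Luteolin (log2 fold change 0.37 ± 0.073, adjusted p = 8.8e-04).

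Complex II, succinate dehydrogenase, is the only complex whose subunits are all nuclear-encoded, and its 4 genes were all called higher, with a median log2 fold change of 0.21. Summed over complex II, the level was 569, 407 and 412 CPM in Control, 487, 510.1 and 467 CPM in IgE+BSA and 555, 585 and 537 CPM in IgE+BSA+Luteolin, with no overlap between the stimulated groups. Sdha, the flavoprotein that oxidizes succinate, was at 241, 197 and 200.3 CPM in Control, 230.2, 242 and 223 CPM in IgE+BSA and 257, 267 and 259 CPM in IgE+BSA+Luteolin (log2 fold change 0.17 ± 0.055, adjusted p = 0.018). Sdhb, the iron-sulfur subunit, was at 109, 61.7 and 63.5 CPM in Control, 78.1, 84.6 and 75.4 CPM in IgE+BSA and 92.9, 98.9 and 84.7 CPM in IgE+BSA+Luteolin (log2 fold change 0.22 ± 0.069, adjusted p = 0.019). For the membrane anchor Sdhc the levels were 97.6, 66.8 and 66.0 CPM in Control, 77.0, 78.3 and 74.1 CPM in IgE+BSA and 88.1, 94.7 and 79.3 CPM in IgE+BSA+Luteolin (log2 fold change 0.20 ± 0.069, adjusted p = 0.032, and 0.13 without IgE+BSA+Luteolin replicate 2), and for the anchor Sdhd 121, 81.8 and 81.8 CPM in Control, 102, 105 and 94.6 CPM in IgE+BSA and 118, 124 and 114 CPM in IgE+BSA+Luteolin (log2 fold change 0.24 ± 0.061, adjusted p = 0.0052). The groups did not overlap for any of the 4 genes. The changes lay in a narrow range, from 0.17 to 0.24.

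In complex III, the cytochrome bc1 complex, 4 of 9 subunits passed the test and the median log2 fold change was 0.20, which became 0.097 without IgE+BSA replicate 3, 0.11 without IgE+BSA+Luteolin replicate 2 and was at most 0.28 with any other library left out. Summed over complex III, the level was 959.8, 622 and 564 CPM in Control, 733, 795 and 699.9 CPM in IgE+BSA and 879, 905 and 785 CPM in IgE+BSA+Luteolin, with the stimulated groups overlapping. The 2 nuclear-encoded catalytic subunits did not pass. Cyc1, cytochrome c1, was at 92.2, 50.4 and 50.2 CPM in Control, 78.8, 83.9 and 67.3 CPM in IgE+BSA and 87.6, 93.9 and 75.7 CPM in IgE+BSA+Luteolin (log2 fold change 0.17 ± 0.086, adjusted p = 0.14), and its log2 fold change was 0.079 without IgE+BSA replicate 3 and 0.091 without IgE+BSA+Luteolin replicate 2. Uqcrfs1, the Rieske iron-sulfur protein, was at 74.8, 63.7 and 59.5 CPM in Control, 77.9, 81.4 and 74.9 CPM in IgE+BSA and 69.1, 77.4 and 72.9 CPM in IgE+BSA+Luteolin (log2 fold change -0.092 ± 0.064, adjusted p = 0.27), and its log2 fold change was -0.058 without IgE+BSA+Luteolin replicate 1 and -0.14 without IgE+BSA+Luteolin replicate 2. For both the groups overlapped, and the value of Uqcrfs1 was the only one of complex III below 0. Both core proteins, Uqcrc1 and Uqcrc2, were higher. Uqcrc1 was at 177, 102 and 96.4 CPM in Control, 123, 147 and 125 CPM in IgE+BSA and 160.1, 160.3 and 139.6 CPM in IgE+BSA+Luteolin (log2 fold change 0.22 ± 0.075, adjusted p = 0.026), with IgE+BSA replicate 2 inside the range of the luteolin libraries. Of the 5 small subunits 2 passed. Uqcr11 had the largest change of the complex, at 78.7, 39.9 and 32.9 CPM in Control, 41.5, 52.2 and 44.7 CPM in IgE+BSA and 70.8, 70.5 and 61.1 CPM in IgE+BSA+Luteolin (log2 fold change 0.55 ± 0.086, adjusted p = 9.8e-05), and Uqcrb, the other, changed by 0.50. Uqcrh, Uqcrq and Uqcr10 gave 0.046, 0.17 and 0.20 and did not pass.

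In complex IV, cytochrome c oxidase, 6 of 12 subunits tested passed and the median log2 fold change was 0.22. Summed over complex IV, the level was 1622, 1127 and 1031 CPM in Control, 1267, 1365 and 1187 CPM in IgE+BSA and 1488, 1498 and 1344 CPM in IgE+BSA+Luteolin, with the stimulated groups overlapping. The catalytic subunits of this complex are encoded in mitochondrial DNA and could not be measured. All 6 called genes, Cox5b, Cox6b1, Cox6c, Cox7a2, Cox7b and Cox7c, were widely expressed forms, of which 10 were tested, with changes from 0.21 to 0.34. Cox4i1, the largest nuclear-encoded subunit, was at 216, 134 and 166 CPM in Control, 183, 202 and 174 CPM in IgE+BSA and 210.3, 206 and 185 CPM in IgE+BSA+Luteolin (log2 fold change 0.11 ± 0.067, adjusted p = 0.2), and its log2 fold change was 0.063 without IgE+BSA replicate 3, 0.068 without IgE+BSA+Luteolin replicate 1 and 0.17 without IgE+BSA replicate 2. Cox5a, with which it assembles early, was at 90.2, 40.3 and 49.6 CPM in Control, 76.6, 84.5 and 62.9 CPM in IgE+BSA and 81.5, 84.6 and 78.4 CPM in IgE+BSA+Luteolin (log2 fold change 0.13 ± 0.085, adjusted p = 0.24), and its log2 fold change was 0.020 without IgE+BSA replicate 3 and 0.22 without IgE+BSA replicate 2. Both overlapped between the groups. Cox6b2 had the largest log2 fold change of the 12 tested, 0.37 ± 0.17, at a few CPM, and its 3 luteolin libraries were above those of IgE+BSA, but it did not pass (adjusted p = 0.093) and was 0.20 without IgE+BSA+Luteolin replicate 2. Cox7a2l had the lowest of the 81 subunits tested, -0.12 ± 0.060 (adjusted p = 0.13), and its luteolin libraries were all below those of IgE+BSA. So were those of Cox7a1, which was under the limit on low levels and had 52 counts in the IgE+BSA and 11 in the IgE+BSA+Luteolin libraries together.

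In complex V, the ATP synthase, 15 of 19 genes were higher and the median log2 fold change was 0.26. Summed over complex V, the level was 4031, 2447 and 2298 CPM in Control, 3133, 3282 and 2945 CPM in IgE+BSA and 3738, 3822 and 3443 CPM in IgE+BSA+Luteolin, with no overlap between the stimulated groups. The F1 head, where ATP is made, had 3 of 5 subunits called. Atp5a1, the alpha subunit, was at 780.4, 502 and 488 CPM in Control, 681, 734 and 649 CPM in IgE+BSA and 744, 784 and 695 CPM in IgE+BSA+Luteolin (log2 fold change 0.11 ± 0.061, adjusted p = 0.16), and its log2 fold change was 0.068 without IgE+BSA replicate 3 and 0.064 without IgE+BSA+Luteolin replicate 2. Atp5b, the beta subunit, was at 1051, 555 and 544 CPM in Control, 819.8, 842 and 761 CPM in IgE+BSA and 955, 978 and 895 CPM in IgE+BSA+Luteolin (log2 fold change 0.23 ± 0.057, adjusted p = 0.0051). The groups overlapped for Atp5a1 and not for Atp5b. Atp5d was the other F1 subunit that did not pass, with 0.042. All 4 subunits of the peripheral stalk, Atp5f1, Atp5h, Atp5j and Atp5o, were higher, by 0.26 to 0.43.

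The 3 genes of the rotor ring gave different values. Atp5g1 was at 121, 46.0 and 39.5 CPM in Control, 72.3, 70.7 and 67.1 CPM in IgE+BSA and 91.7, 93.5 and 86.7 CPM in IgE+BSA+Luteolin (log2 fold change 0.38 ± 0.061, adjusted p = 1.5e-04). Atp5g3 was at 176, 96.5 and 82.3 CPM in Control, 126, 136 and 119.5 CPM in IgE+BSA and 150.1, 153 and 138 CPM in IgE+BSA+Luteolin (log2 fold change 0.21 ± 0.063, adjusted p = 0.014). Atp5g2 was at 75.6, 65.4 and 55.4 CPM in Control, 71.3, 75.3 and 70.8 CPM in IgE+BSA and 70.7, 82.6 and 67.1 CPM in IgE+BSA+Luteolin (log2 fold change 0.024 ± 0.075, adjusted p = 0.83), and its log2 fold change ran from -0.073 without IgE+BSA+Luteolin replicate 2 to 0.083 without IgE+BSA+Luteolin replicate 3 and was -0.17 with the correction for transcript length given below, which called it lower. The luteolin libraries of Atp5g1 and Atp5g3 were all above those of IgE+BSA, and those of Atp5g2 overlapped them. The difference between the 3 genes was not tested. All 5 small membrane subunits, which shape the dimer and the cristae, were higher. Usmg5, one of them, had the largest change of complex V, at 60.1, 34.4 and 31.2 CPM in Control, 43.1, 39.2 and 37.8 CPM in IgE+BSA and 60.2, 60.9 and 56.9 CPM in IgE+BSA+Luteolin (log2 fold change 0.57 ± 0.072, adjusted p = 9.9e-06), and the inhibitor Atpif1, which stops the enzyme from splitting ATP, was higher by 0.48 on the log2 scale. Atp5s gave 0.080 and did not pass.

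The transcripts of these subunits are short, with a median of 742 nt against 2730.0 nt over all genes tested, and the fold change with luteolin fell with length over all genes. Among other genes of up to 500 nt the median log2 fold change was 0.23, above 500 and up to 1000 nt it was 0.17, above 1000 and up to 2000 nt 0.13, and above 2000 nt -0.045. The subunits in the same length classes had medians of 0.25 (12 genes), 0.26 (41), 0.24 (23) and 0.20 (5). The shares called higher were 66.7% against 28.9% of other genes in the shortest class, 75.6% against 29.4% in the next, 82.6% against 27.7% in the third and 80.0% against 12.7% above. Levels were not matched within a class, so these shares do not compare genes of like abundance. With a correction that removed the trend with length from each library, 30 subunits were higher and 4 lower, against 16.6% and 19.3% of all genes, and the median fell to 0.12.

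By complex, 15 of 37 subunits of complex I, 2 of 4 of complex II, 3 of 9 of complex III, 2 of 12 of complex IV and 8 of 19 of complex V were higher after the length correction, beside 16.6% of all genes. The share in complex IV was close to that of all genes. Those lower were Uqcrfs1 at -0.21, Uqcrh at -0.14, Cox7a2l at -0.26 and Atp5g2 at -0.17, named after their values were seen. Usmg5, Ndufb4 and Uqcr11 were still higher, with 0.36, 0.42 and 0.35. Of the called subunits given by library above, Sdhb, Sdhd, Uqcrc1 and Atp5g3 did not pass after it, with 0.080, 0.11, 0.13 and 0.043. The medians given by complex above are without this correction. The part of transcript length in the result was not tested beyond this correction. Among the subunits with a promoter window, the median uncorrected log2 fold change with luteolin was 0.25 over the 18 subunits with an NRF1 motif and 0.27 over the 50 without, 0.24 and 0.27 for the ETS motif, and 0.34 over 10 and 0.24 over 58 for the YY1 motif.

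**Figure D5:**
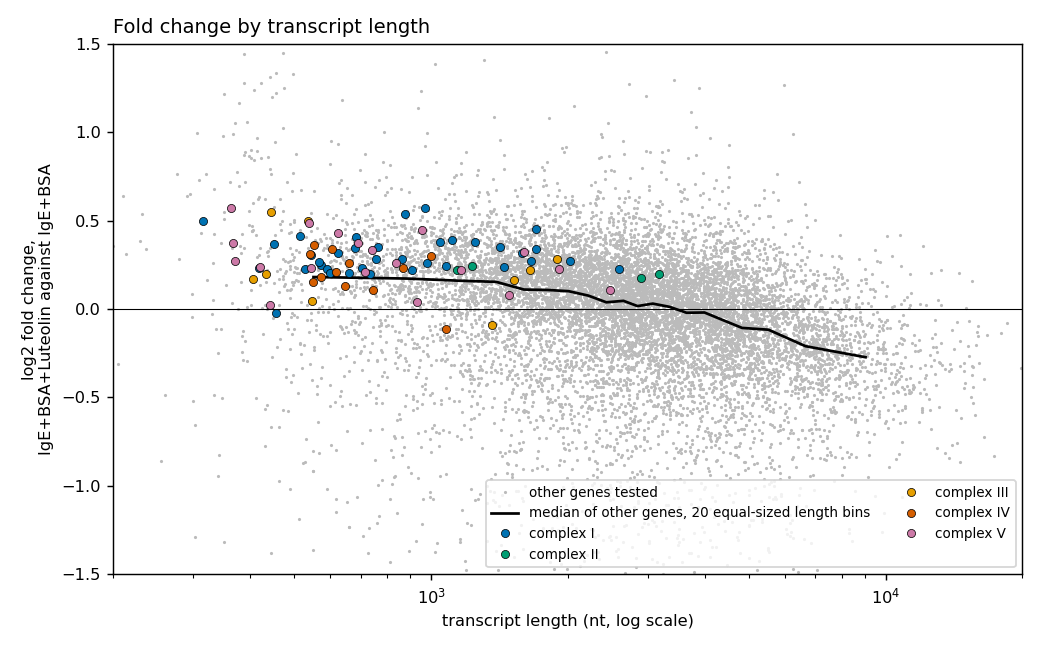
Log2 fold change in IgE+BSA+Luteolin against IgE+BSA (vertical axis, drawn from -1.5 to 1.5) by transcript length (horizontal log axis, nt) for the same 80 subunits of complex I to V (coloured points) and all other genes tested (grey points), with the median of the other genes in 20 length bins as a black line. The line falls from above 0 for short transcripts to below 0 for long ones, and most subunits lie above it.

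The comparison of IgE+BSA with Control asks which subunit transcripts differ after stimulation. With edgeR's quasi-likelihood test 0 of the 81 subunits passed in either direction, while 2.25% of all genes were called higher and 1.02% lower, and the median log2 fold change was -0.030. At an unadjusted p under 0.05 there was 1 subunit, Cox6b2. By complex the medians were -0.076 in complex I, 0.046 in complex II, 0.058 in complex III, 0.048 in complex IV and -0.036 in complex V. With 1 library left out each of these changed sign, with ranges of -0.23 to 0.20, -0.070 to 0.21, -0.097 to 0.36, -0.15 to 0.32 and -0.13 to 0.23 for complex I to V, the low ends without Control replicate 3 and the high ends without Control replicate 1. DESeq2 called 0 higher and 1 lower, Cox6b2, against 5.18% and 5.43% of all genes, and limma called none.

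These values depended on which Control libraries were used. Without Control replicate 1, 42 subunits were higher and 3 lower, against 22.6% and 22.4% of all genes, with a median of 0.25 and medians of 0.20, 0.21, 0.36, 0.32 and 0.23 for complex I to V. Those called higher were 13 of 37 in complex I, 3 of 4 in complex II, 8 of 9 in complex III, 8 of 12 in complex IV and 10 of 19 in complex V, and those lower were Uqcrh, Cox6b2 and Cox7a2l. With Control replicate 1 as the only Control library, a setting chosen after its values were seen, 1 subunit was higher and 67 were lower, against 23.1% and 19.2% of all genes, with a median of -0.51 and medians of -0.57, -0.33, -0.45, -0.45 and -0.47 for complex I to V. That single library is then assumed to vary like the IgE+BSA libraries. The direction of the subunits after stimulation thus turned with the Control library used, and the part of the neutrophil, mast cell, basophil and eosinophil markers, whose sums split the same libraries, was not tested.

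The comparison of IgE+BSA+Luteolin with Control asks how stimulated cells given luteolin differ from untreated cells. It shares the Control libraries with the comparison above and the luteolin libraries with the one before. Again 0 of 81 subunits passed in either direction in edgeR's test, with 0.285% of all genes higher and 2.75% lower, although 78 subunits had a log2 fold change above 0 and the median was 0.25. At an unadjusted p under 0.05 there were 3, and DESeq2, with 3.04% of all genes higher and 8.89% lower, and limma called 0. The medians by complex were 0.22, 0.26, 0.32, 0.27 and 0.27 for complex I to V. Without Control replicate 1, 74 were higher and 3 lower, against 29.9% and 30.1% of all genes, with a median of 0.56 and medians of 0.54, 0.46, 0.67, 0.60 and 0.56 by complex. Without Control replicate 3 the medians by complex were 0.067, 0.16, 0.13, 0.096 and 0.11, and without Control replicate 2 they were 0.13, 0.16, 0.17, 0.18 and 0.19. With Control replicate 1 alone 0 were higher and 18 lower, against 11.6% and 9.55%, with a median of -0.18 and medians of -0.23, -0.097, -0.10, -0.18 and -0.16 by complex.

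In single genes the spread within Control is plain. Atp5g1 ranged from 39.5 to 121 CPM within Control, a range that held all other libraries. Its log2 fold change against Control was 0.013 in IgE+BSA (adjusted p = 0.99) and 0.39 in IgE+BSA+Luteolin (adjusted p = 0.55). The values in IgE+BSA and IgE+BSA+Luteolin were 0.68 and 1.09 without Control replicate 1 and -0.81 and -0.42 with that library alone. For Cox6b2, the only subunit with an unadjusted p under 0.05 in IgE+BSA, the value was -1.10 (adjusted p = 0.071) and in IgE+BSA+Luteolin -0.74 (adjusted p = 0.18). Its 3 Control libraries were all above the 6 others. For this gene the values in IgE+BSA and IgE+BSA+Luteolin were -1.29 and -0.88 without Control replicate 1 and -0.70 and -0.32 with that library alone. Cox7a2l gave -0.51 and -0.63, and Control replicate 1 was below all 6. For Cox7a2l the values in IgE+BSA and IgE+BSA+Luteolin were -0.84 and -0.92 without Control replicate 1 and 0.30 and 0.20 with that library alone.

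Genes that serve the complexes were examined in lists beside the subunits. Of 49 assembly factors tested, which insert cofactors and join subunits, 18 were higher and 2 lower with luteolin against IgE+BSA, while 18.1% of all genes tested were called higher and 21.9% lower, shares that hold for each list below. They were 5 of 15 for complex I, 3 of 4 for complex II, 3 of 6 for complex III, 4 of 20 higher and 2 lower for complex IV, and 3 of 4 for complex V. The largest and smallest log2 fold changes were 0.43 (Ndufaf1) and -0.28 (Tmem186) for complex I, 0.79 (Sdhaf1) and 0.35 (Sdhaf2) for complex II, 0.50 (Uqcc2) and -0.23 (Ttc19) for complex III, 0.48 (Pet100) and -1.38 (Cox17) for complex IV, and 0.63 (Atpaf1) and 0.21 (Fmc1) for complex V. Tmem186, Ttc19 and Fmc1 did not pass. Cox17, the chaperone that brings copper to complex IV, fell, at 7.26, 13.3 and 16.7 CPM in Control, 10.3, 7.16 and 11.2 CPM in IgE+BSA and 3.55, 3.33 and 4.12 CPM in IgE+BSA+Luteolin (log2 fold change -1.38 ± 0.19, adjusted p = 2.5e-05). Its luteolin libraries were below all other libraries.

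Cycs, the cytochrome c that carries electrons from complex III to IV and a gene with many processed pseudogenes, was at 98.0, 49.9 and 42.3 CPM in Control, 89.8, 91.3 and 77.4 CPM in IgE+BSA and 91.9, 92.4 and 83.4 CPM in IgE+BSA+Luteolin (log2 fold change 0.054 ± 0.071, adjusted p = 0.57), with Control replicates 2 and 3 below the other libraries. Of 13 genes of ubiquinone synthesis and handling 1 was higher and 1 lower, beside those 18.1% and 21.9% of all genes. Coq9, named after its value was seen, was higher by 0.29, Coq8a had the largest value, 0.33, and did not pass, and Coq10b, a ubiquinone-binding protein, fell, from 33.2, 30.9 and 30.5 CPM in IgE+BSA to 16.2, 15.8 and 17.0 CPM in IgE+BSA+Luteolin (log2 fold change -0.95 ± 0.087, adjusted p = 1.8e-07). Of 14 genes that copy and transcribe mitochondrial DNA 4 were higher and 0 lower, beside the same 18.1% and 21.9%. These were Tfam, Polrmt, Mterf3 and Ssbp1, named after their values were seen, with 0.42, 0.35, 0.30 and 0.21. Mterf1b and Mterf1a, close copies whose reads may be split, had the largest and smallest values, 0.73 and -0.65, and neither passed.

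Of 8 nuclear regulators of respiratory genes tested 2 were higher and 4 lower with luteolin, beside 18.1% and 21.9% of all genes. Esrra, an orphan nuclear receptor, was higher, at 32.2, 31.7 and 28.5 CPM in IgE+BSA and 40.2, 43.6 and 36.3 CPM in IgE+BSA+Luteolin (log2 fold change 0.38 ± 0.086, adjusted p = 0.0023). Gabpb1, a subunit of the ETS-family factor GABP (NRF2), was lower, at 67.6, 62.7 and 65.8 CPM in IgE+BSA and 43.4, 48.5 and 50.6 CPM in IgE+BSA+Luteolin (log2 fold change -0.46 ± 0.072, adjusted p = 1.0e-04). Gabpa, Gabpb2 and Pprc1 were the others called lower and Yy1 the other called higher, named after their values were seen, with -0.23, -0.42, -0.42 and 0.22. The coactivator Ppargc1a was at or under 0.29 CPM in every library and was not tested.

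Against Control the lists held few calls in edgeR's test, where all genes had 2.25% higher and 1.02% lower in IgE+BSA and 0.285% and 2.75% in IgE+BSA+Luteolin. Of the 49 assembly factors 0 were higher and 2 lower in each. Of 14 electron carrier genes (Cycs and the ubiquinone genes) 0 were called in IgE+BSA, with an unadjusted p under 0.05 for 2, and 1 was lower in IgE+BSA+Luteolin. The lists of mitochondrial DNA expression and of regulators had 0 calls, with an unadjusted p under 0.05 for 6 and 1 genes in IgE+BSA and 4 and 0 in IgE+BSA+Luteolin. The shares of all genes at that unadjusted limit are not given, so these unadjusted counts are not set against them. Without Control replicate 1, beside 22.6% of all genes higher and 22.4% lower in IgE+BSA, 6 assembly factors were higher and 10 lower, 4 and 1 electron carrier genes, 1 and 7 genes of mitochondrial DNA expression, and 2 and 1 regulators. In IgE+BSA+Luteolin, beside 29.9% and 30.1%, the counts in the same order were 21 and 6, 6 and 2, 3 and 4, and 2 and 2. With Control replicate 1 as the only Control library they were 1 and 17, 1 and 4, 0 and 6, and 3 and 0 in IgE+BSA, beside 23.1% and 19.2%, and 2 and 2, 0 and 2, 0 and 1, and 2 and 1 in IgE+BSA+Luteolin, beside 11.6% and 9.55%.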

How the data were processed

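RNA from 9 BMMC libraries, 3 per group, was sequenced. Per the submitters' processing notes, the authors aligned reads with STAR 2.7.0f to mm10, and the deposited values are raw read counts per gene for 47643 genes, with no normalization. Of these, 47224 were matched to GENCODE release M21 for symbols and lengths, and the others held 0.202% of counts.

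Genes with a median CPM above 1 over the 9 libraries were kept (11560). The 6 libraries of each comparison were fitted with edgeR 4.0.16 (R 4.3.3; TMM factors, quasi-likelihood test, two-sided, Benjamini-Hochberg adjustment over all genes kept, threshold 0.05). Alternatives included DESeq2 1.42.0, limma 3.58.1, other scalings and filters, corrections for length and GC content (lowess span 0.3), and leaving out each library. The fit was also run on simulated data, and the outcome is not given here. Intervals of ± are SE for log2 fold changes. Counts at an unadjusted p under 0.05 are given without the share of all genes at that limit.

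Values in every library are given for the subunit with the highest and the lowest log2 fold change with luteolin in each complex, all of complex II, and subunits chosen for their roles (Ndufv1, Ndufs1, Cyc1, Uqcrfs1, Uqcrc1, Cox4i1, Cox5a, Cox7a2l, Atp5a1, Atp5b, Atp5g1, Atp5g2 and Atp5g3, and 1 more that is not reported here). In the lists of other genes the highest and lowest were named. Other genes were named after their values were seen. The subunits and lists were chosen with earlier results of these data known. No 2 replicates of a group agreed within sampling noise (lowest chi-square per degree of freedom 3.93). The value was 82.1 and 131 for Control replicate 1 against Control replicates 2 and 3, and at most 14.2 for any other pair.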

Additional observations from a re-analysis of the deposited data

How the results depend on the processing

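Between IgE+BSA+Luteolin and IgE+BSA, 62 subunits were higher and 0 lower. The number higher was 0 with all 9 libraries in 1 fit, 30 with the length correction, 37 with length correction and replicate block (20.4% of all genes), 36 at a threshold of 0.01, and 36 to 73 with 1 library left out. The number lower was 1, Cox7a1, without a filter (beside 2623 lower of 22025 genes) and with filterByExpr (beside 2662 of 12654), 4 with the length correction and 5 with the block added (21.9% of all genes). The median of 0.26 became 0.37 with library size alone, which moved the median of all genes to 0.13, and 0.12 with the length correction, with or without the block. Between IgE+BSA and Control, leaving out 1 library gave 0 to 42 higher and 0 to 3 lower, the high end without Control replicate 1. Control replicate 1 alone gave 1 higher and 67 lower with a median of -0.51, and no filter, DESeq2 and all 9 libraries in 1 fit gave 1 lower each, against 0.908%, 5.43% and 3.73% of all genes. Between IgE+BSA+Luteolin and Control the ranges were 0 to 74 and 0 to 3, and Control replicate 1 alone gave 18 lower with a median of -0.18. With that library alone the medians were -0.57, -0.33, -0.45, -0.45 and -0.47 for complexes I to V in IgE+BSA, and -0.23, -0.097, -0.10, -0.18 and -0.16 for complexes I to V in IgE+BSA+Luteolin. Single genes near 0 changed sign in IgE+BSA+Luteolin against IgE+BSA. Ndufb2 gave 0.092 with library size alone, 0.056 with upper-quartile factors and -0.051 to 0.036 with 1 library left out, and Uqcrfs1 gave 0.021 with library size alone. With the length correction Cox4i1 gave -0.057, Cox5a -0.042 and Atp5g2 -0.17 (with the block -0.057, -0.040 and -0.18), and Atp5g2 gave -0.028 with the GC correction and -0.073 to 0.083 with 1 library left out. The cause was not tested. Libraries with the same replicate number did not all deviate together, with correlations of -0.024, 0.17 and 0.28 between IgE+BSA+Luteolin and IgE+BSA, so the numbers were not taken as pairs, and the replicate block alone gave 70 subunits higher, against 22.8% of all genes.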
